A study of Mus musculus with 19 samples.

Results

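Receptors for adrenaline and noradrenaline, adenosine and prostaglandin E2 were examined in cells lavaged from mouse airspaces 1 h after bacterial particles were given. The members are 7 genes, Adora2a, Adora2b, Adora3, Ptger2, Ptger4, Adra2a and Adrb1, taken by gene symbol from the deposited tables of counts and TPM, which hold 56941 genes. Levels are given in TPM, transcript abundance scaled for gene length and to a fixed total in each library. All 7 members were among the 20501 genes that passed a filter on low counts.

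Bulk RNA was sequenced from the pelleted cells of bronchoalveolar lavage. The labels call them alveolar macrophages, the phagocytes that live in the airspace, and mention neither sorting nor gating. All mice were female and 7 to 8 weeks old, and were ICAM-1 null or wild type (C57Bl/6J); ICAM-1 is an adhesion molecule that leukocyte integrins bind. Exposed mice had aspirated 100 µL of Staphylococcus aureus bioparticles labelled with pHrodo, a dye that brightens in acid compartments, at 2.27 mg/mL under isoflurane, 1 h before lavage. There were 5 libraries of null exposed mice, 5 of null naive mice, 5 of wild type exposed mice and 4 of wild type naive mice. The labels do not say whether naive mice received the vehicle or the anaesthetic, what background the null line has, or whether a library is 1 mouse or a pool. The missing ICAM-1 and anything else in which the lines differ cannot be told apart, nor can the particles and their delivery, and p-values measure the spread between these libraries. In bulk RNA, fewer cells of a type and less RNA per cell cannot be told apart.

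These receptors sit in the cell membrane and act through G proteins. The adenosine receptors Adora2a and Adora2b, the prostaglandin E2 receptors Ptger2 and Ptger4 and the beta adrenergic receptor Adrb1 couple mainly to Gs, which makes adenylyl cyclase produce cAMP, whereas Adora3 and Adra2a couple to Gi, which holds it back. In macrophages, cAMP, which activates protein kinase A among other targets, is known to lower the release of inflammatory cytokines such as TNF and to restrain phagocytosis.

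Promoter sequences are shown for the 4 members with the largest exposure changes among the 6 that RefSeq's promoter table covers, a pair that rose and a pair that fell. The table has no entry for Adora2a. Each line gives the 120 bases before the RefSeq start on GRCm38.p6, read 5′ to 3′ on the gene's strand, with matches to the motifs searched in capitals.
Adora2b, chr11:62248864-62248983 (+): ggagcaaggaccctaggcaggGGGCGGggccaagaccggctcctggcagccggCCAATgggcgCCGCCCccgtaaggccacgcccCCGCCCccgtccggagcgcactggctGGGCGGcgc
Ptger4, chr15:5244188-5244307 (-): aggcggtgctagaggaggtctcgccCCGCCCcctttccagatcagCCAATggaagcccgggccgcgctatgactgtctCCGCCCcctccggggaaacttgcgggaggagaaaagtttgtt
Adra2a, chr19:54045139-54045258 (+): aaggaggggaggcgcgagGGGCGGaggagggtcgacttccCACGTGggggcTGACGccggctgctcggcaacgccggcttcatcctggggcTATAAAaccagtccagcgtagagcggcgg
Adora3, chr3:105904301-105904420 (+): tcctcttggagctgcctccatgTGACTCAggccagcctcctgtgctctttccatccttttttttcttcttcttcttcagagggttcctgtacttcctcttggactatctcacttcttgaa

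The motifs were searched on both strands of 300 bases around the start, 250 before and 50 after. They were the cAMP response element TGACGTCA (in 1.79% of 32851 promoters), its core TGACG (20.8%), the AP-1 site TGANTCA (7.81%), the GC box GGGCGG (35.7%), CCAAT (37.4%), TATAAA (13.6%), CACGTG (7.15%) and the NF-kB consensus (8.46%). The full response element contains the core, so those matches overlap. Both windows of the genes that rose hold CCAAT and GC boxes: CCAAT begins 67 bases before the start in Adora2b and 75 before it in Ptger4, and the search window held 6 GC boxes in Adora2b and 4 in Ptger4. Adra2a has TATAAA 29 bases before its start, CACGTG at 80, TGACG at 69 and 1 GC box at 102. Adora3 has 1 AP-1 match, 98 bases before its start, in a window of 47.5% G and C, against 79.2% for Adora2b, 63.3% for Ptger4 and 69.2% for Adra2a. The full response element and the NF-kB consensus were in none of the 6 windows. Adrb1 held the core, a CCAAT match and a GC box, and Ptger2 held CCAAT. A match is a run of letters and no evidence of binding.

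Libraries held 32.8 to 80.3 M deposited counts (M, mega), with 57 to 66.3 M in null exposed, 59.8 to 78.8 M in null naive, 42.6 to 61.0 M in wild type exposed and 32.8 to 80.3 M in wild type naive libraries. Icam1 (chromosome 9), the targeted gene, averaged 10.8 ± 1.59 TPM in null exposed and 8.13 ± 2.63 TPM in null naive libraries, against 899 ± 155 TPM in wild type exposed and 74.6 ± 10.7 TPM in wild type naive libraries (SD). Its log2 fold change, null over wild type, was -6.34 (SE 0.22, adjusted p = 2.4e-13) in exposed and -3.13 (SE 0.20, adjusted p = 2.3e-09) in naive libraries. All 12 alveolar macrophage markers were detected in every group and summed to 21600-27300 TPM in null exposed, 26100-29400 in null naive, 22600-26800 in wild type exposed and 23100-26800 in wild type naive libraries. Of 12 neutrophil markers 10 were detected in each group, summing to 126-189, 170-185, 86.2-118 and 67-94.1 TPM in that order of groups. Within that sum Csf3r averaged 54.7, 99.0, 16.3 and 31.6 TPM, S100a8 38.2, 29.7, 17.9 and 11.9 TPM and Ltf 38.6, 9.63, 34.7 and 10.5 TPM in that order, while Ly6g averaged at most 0.271 TPM in any group. Sums of 14 epithelial markers were 823-1440, 552-785, 1340-3670 and 662-858 TPM, and sums of 9 red cell and platelet markers 135-355, 101-355, 373-2400 and 139-414 TPM in the same order. Epithelial marker sums were thus higher in exposed than in naive libraries of both genotypes, without overlap. Most of these markers rose in mean TPM, among them Scgb1a1, at 440, 205, 1270 and 247 TPM in the same order. Epcam (110, 169, 54.1 and 84.7 TPM) and Cdh1 (26.1, 42.2, 27.6 and 42.8 TPM) were lower in exposed libraries of both genotypes. Sums of 12 T and NK cell markers were 169-210, 151-201, 219-288 and 185-238 TPM. Sums of 12 mast cell and eosinophil markers were 2.32-3.59, 1.89-2.77, 3.56-8.14 and 1.35-2.32 TPM, and Mcpt4, Ms4a2, Fcer1a and Il5ra were at 0 in all libraries.

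Of the 7 genes, 6 differed between exposed and naive libraries in both genotypes: Adora2a, Adora2b and Ptger4 rose, and Adra2a, Adora3 and Ptger2 fell. For each of the 6, the TPM of exposed and naive libraries did not overlap in either genotype. How many of all genes tested also lacked overlap was not counted, so whether this is particular to the members is not known. Calls are from edgeR's quasi-likelihood test over all genes, at a Benjamini-Hochberg adjusted p below 0.05. In null mice 3 of 7 members rose and 3 fell, where 21.3% of all genes tested were called higher and 23.4% lower. In wild type mice 3 of 7 also rose and 3 fell, where 20.1% of all genes were called higher and 20.1% lower. The median log2 fold change over the 7 members was 0.10 in null and -0.06 in wild type mice, beside 0.02 over all genes in both. These shares depend on the scale: of the genes called, 47.6% in null and 49.9% in wild type mice were higher by edgeR, and 21.0% in both by limma on log2(TPM + 1). On that scale the median of all genes lay at -0.19 in null and -0.22 in wild type mice, so a fall in TPM of that size was shared by the median gene, and the log2 fold changes below are relative to edgeR's scaling.

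**Figure D1:**
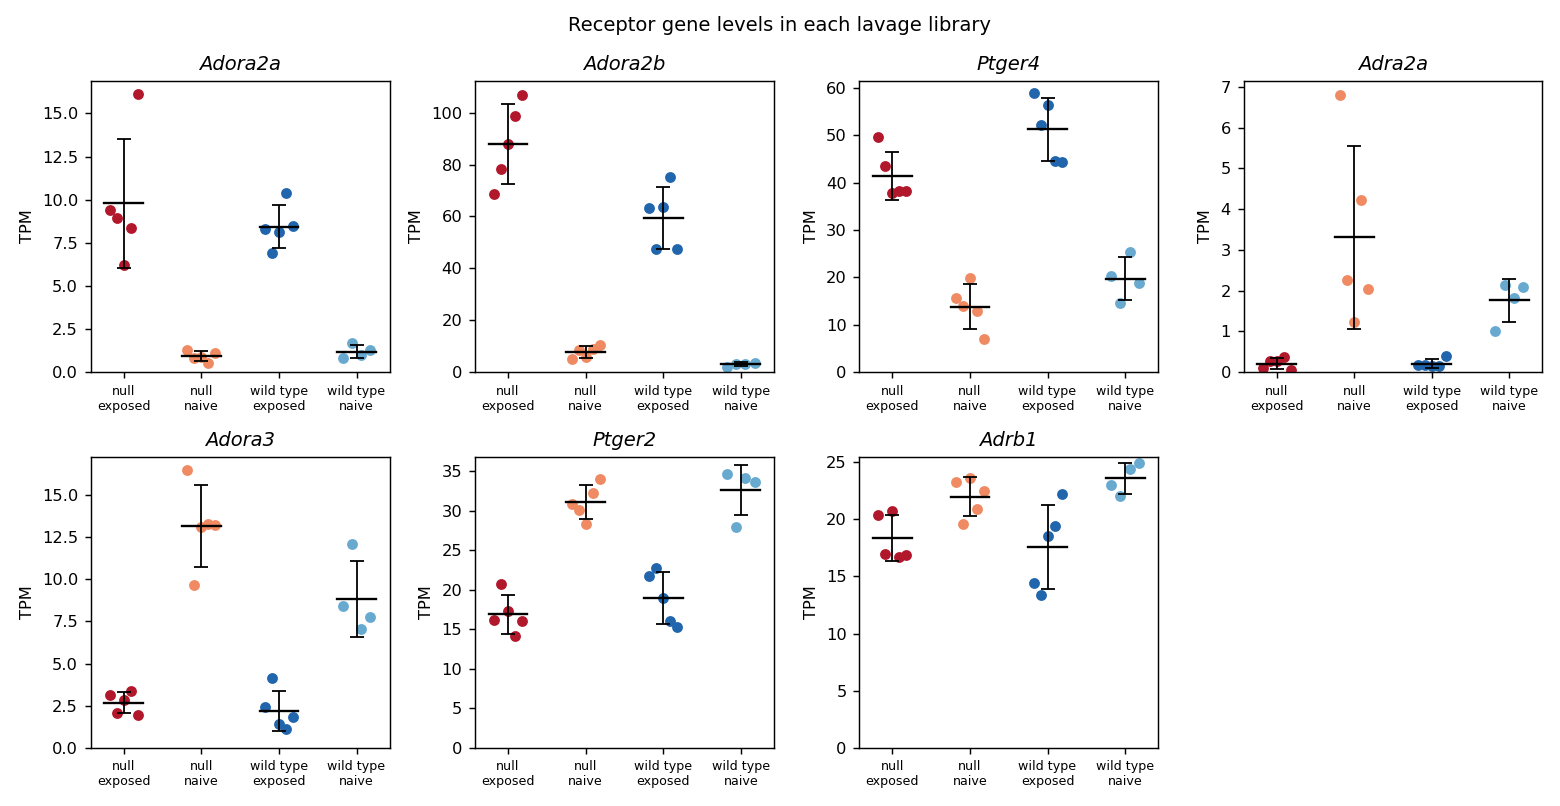
TPM of the 7 receptor genes (1 panel each, linear axis from 0) in the 4 groups of 4 or 5 lavage libraries. Each point is a library, the long bar the group mean and the whiskers 1 SD; in every panel but that of Adrb1 the exposed points lie wholly above or wholly below the naive points of the same genotype.

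Adora2b (ENSMUSG00000018500.3, chr11:62139810-62157279 on GRCm39, + strand) is the adenosine receptor of low affinity for its ligand. It had 68.6, 78.2, 87.8, 98.8 and 107 TPM in null exposed libraries, against 4.93, 8.67, 5.68, 8.99 and 10.6 TPM in null naive libraries. Wild type mice gave 63.1, 47.4, 63.7, 75.4 and 47.3 TPM in exposed libraries, against 1.96, 3.27, 2.93 and 3.66 TPM in naive libraries. The lowest exposed library of either genotype was above the highest naive library of both. The log2 fold change, exposed over naive, was 3.86 (SE 0.21, adjusted p = 1.8e-11) in null and 4.67 (SE 0.25, adjusted p = 1.5e-11) in wild type mice, or 14.5-fold and 25.5-fold. Adora2b ranked first among the members in exposed libraries of both genotypes. In null exposed libraries its range did not meet that of Ptger4, the next gene, while in wild type exposed libraries these ranges overlapped.

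Adora2a (ENSMUSG00000020178.7, chr10:75152711-75170618, + strand) is the adenosine receptor best known for restraining activated leukocytes. It had 9.40, 8.95, 6.18, 8.33 and 16.1 TPM in null exposed libraries, against 1.3, 0.807, 0.860, 0.534 and 1.08 TPM in null naive libraries. Among wild type libraries it had 8.29, 6.88, 8.13, 10.4 and 8.45 TPM in exposed libraries, against 0.802, 1.66, 0.971 and 1.26 TPM in naive libraries. Exposed libraries lay between 6.18 and 16.1 TPM, with library 5 of the null exposed group the highest, and naive ones between 0.534 and 1.66 TPM. In edgeR the log2 fold change was 3.77 (SE 0.27, adjusted p = 7.9e-11) in null and 3.30 (SE 0.29, adjusted p = 4.2e-09) in wild type mice.

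Adora3 (ENSMUSG00000000562.6, chr3:105778174-105816242, + strand) is coupled to Gi and moved the other way. It had 3.14, 2.07, 2.81, 3.38 and 1.96 TPM in null exposed libraries, against 16.5, 9.66, 13.1, 13.3 and 13.2 TPM in null naive libraries. In wild type mice it had 2.42, 4.12, 1.39, 1.12 and 1.80 TPM in exposed libraries, against 8.40, 12.1, 7.02 and 7.79 TPM in naive libraries. Every exposed library was below every naive one. On the log2 scale the exposure response was -1.78 (SE 0.25, adjusted p = 4.4e-06) in null and -1.59 (SE 0.27, adjusted p = 4.5e-05) in wild type mice. In mice Adora3 is also known from mast cells. Of the 12 mast cell and eosinophil markers 3 passed the low count filter: Hdc and Kit were called higher after exposure in both genotypes (1.65 and 0.58 in null, 2.41 and 1.47 in wild type mice), and Cpa3 was not called. Kit averaged 0.992 to 2.23 TPM and Hdc 0.53 to 2.85 TPM over the groups, and the part of such cells in the level of Adora3 was not tested. Tmigd3 and Gm53046 overlap Adora3 on the same strand, and their highest group means were 0.632 and 0.152 TPM. Reads from shared stretches cannot be assigned with certainty.

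Within the adenosine receptors the leading gene differed between exposed and naive cells. Adora2b made up 87.5 ± 2.60% of the summed TPM of the 4 adenosine receptor genes in null exposed libraries, against 35.6 ± 9.94% in null naive libraries. Its share in wild type mice was 84.5 ± 2.73% in exposed and 23.1 ± 5.54% in naive libraries (SD). Adora3 held 2.74 ± 0.854% in null exposed and 60.2 ± 9.29% in null naive libraries, and 3.33 ± 2.24% in wild type exposed and 67.9 ± 6.34% in wild type naive libraries. A two-sided exact permutation test of the share of Adora2b, exposed against naive, gave p = 0.0079 in each genotype (adjusted p = 0.019 over 12 share tests, 4 of them of a family share that is not reported here), the smallest value these group sizes allow. The summed level of the family was 101 ± 17.4 TPM in null exposed and 21.8 ± 2.41 TPM in null naive libraries, and 70.0 ± 12.2 TPM in wild type exposed and 12.9 ± 2.81 TPM in wild type naive libraries. The fourth member of the family, Adora1, a receptor coupled to Gi, had 0 to 22 counts in null exposed, 0 to 5 in null naive, 0 to 11 in wild type exposed and 0 in all wild type naive libraries. It was called higher in wild type exposed than in wild type naive libraries (edgeR adjusted p = 0.027), with 1 of the 5 exposed libraries also at 0.

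**Figure D2:**
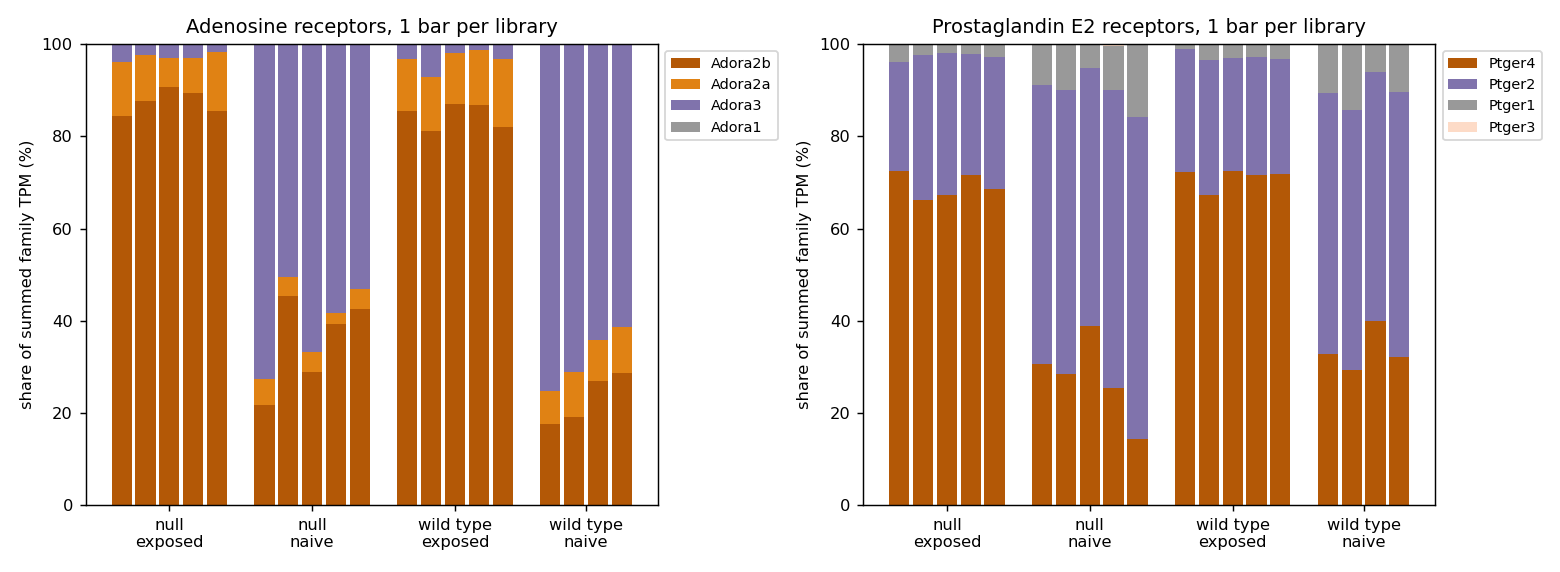
Share of each gene in the summed TPM of its receptor family (%), 1 stacked bar per library, for the adenosine receptors (left) and the prostaglandin E2 receptors (right), in the 4 groups. Adora2b fills 81.1 to 90.6% of the exposed bars and 17.6 to 45.3% of the naive bars, and Ptger4 fills 66.1 to 72.5% of the exposed bars and 14.3 to 40.0% of the naive bars.

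Ptger4 (ENSMUSG00000039942.16, chr15:5236142-5273668, - strand) and Ptger2 are the Gs-coupled receptors for prostaglandin E2, and they moved in opposite directions. Ptger4 had 49.6, 43.5, 37.9, 38.2 and 38.3 TPM in null exposed libraries, against 15.7, 13.9, 19.8, 12.8 and 7.00 TPM in null naive libraries. Wild type mice gave 58.9, 52.3, 56.4, 44.6 and 44.3 TPM in exposed libraries, against 20.2, 14.6, 25.4 and 18.8 TPM in naive libraries. No exposed library came below 37.9 TPM and no naive library above 25.4 TPM. The log2 fold change was 1.92 (SE 0.21, adjusted p = 3.9e-07) in null and 1.75 (SE 0.23, adjusted p = 4.4e-06) in wild type mice. Ttc33, which averaged up to 34.6 TPM, overlaps Ptger4 on the opposite strand, and since the sources used here do not state a strand setting, reads from the shared stretch cannot be assigned with certainty.

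Ptger2 (ENSMUSG00000037759.7, chr14:45225652-45241277, + strand) had 16.2, 20.7, 17.3, 14.1 and 16.1 TPM in null exposed libraries, against 30.9, 30.1, 28.4, 32.3 and 34.0 TPM in null naive libraries. Among wild type libraries it had 21.7, 22.8, 19, 16.0 and 15.3 TPM in exposed libraries, against 34.7, 28.0, 34.2 and 33.7 TPM in naive libraries. The ranges stood apart, but the change was the smallest of the 6. In edgeR the log2 fold change was -0.55 (SE 0.11, adjusted p = 0.00018) in null and -0.39 (SE 0.11, adjusted p = 0.0081) in wild type mice, or 1.46-fold and 1.31-fold lower. With the epithelial and red cell marker levels as covariates it no longer passed, at -0.48 (adjusted p = 0.053) in null and -0.32 (adjusted p = 0.50) in wild type mice. Epithelial marker sums themselves parted exposed from naive libraries, so this fit can hardly separate them from exposure. Its calls over all genes fell too, from 9175 to 5662 in null and from 8245 to 2349 in wild type mice. The part of other cells in the fall of Ptger2 was not tested. In wild type mice Ptger2 also did not pass with neutrophil and lymphocyte marker levels as covariates (-0.61, adjusted p = 0.052). Without wild type naive libraries 1, 2 and 3, whose totals were low, it was -0.45 (adjusted p = 0.086). The antisense genes Gm17173 and Gm49364, at up to 3.04 and 9.52 TPM, overlap Ptger2.

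In the prostaglandin E2 receptor family Ptger4 led in exposed cells and Ptger2 in naive cells. Ptger4 made up 69.2 ± 2.71% of the summed TPM of the 4 genes in null exposed and 27.6 ± 8.91% in null naive libraries, and 71.1 ± 2.13% in wild type exposed and 33.6 ± 4.52% in wild type naive libraries. The exact permutation test gave p = 0.0079 (adjusted p = 0.019) in each genotype. Ptger2 held 28.2 ± 3.24% in null exposed and 62.5 ± 5.10% in null naive libraries, and 26.1 ± 1.96% in wild type exposed and 56.1 ± 1.56% in wild type naive libraries. The family sum moved less than its parts, at 60.0 ± 6.67 TPM in null exposed and 49.9 ± 1.08 TPM in null naive libraries, and 72.2 ± 9.46 TPM in wild type exposed and 58.3 ± 6.06 TPM in wild type naive libraries. Ptger1, a receptor that signals through calcium, was lower after exposure, with a mean of 1.54 ± 0.622 TPM in null exposed and 4.85 ± 1.84 TPM in null naive libraries (log2 fold change -1.31, SE 0.27, adjusted p = 3e-04). Ptger1 in wild type mice averaged 1.90 ± 0.655 TPM in exposed and 5.88 ± 1.44 TPM in naive libraries (-1.15, SE 0.28, adjusted p = 0.0019).

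Adra2a (ENSMUSG00000033717.7, chr19:54032582-54037413, + strand) encodes the alpha-2 adrenergic receptor that is coupled to Gi. It had 0.0927, 0.268, 0.268, 0.357 and 0.0412 TPM in null exposed libraries, against 6.81, 2.25, 1.22, 4.23 and 2.04 TPM in null naive libraries. In wild type mice it had 0.181, 0.170, 0.138, 0.139 and 0.388 TPM in exposed libraries, against 1.00, 2.15, 1.81 and 2.10 TPM in naive libraries. All 10 exposed libraries lay below 0.4 TPM and all 9 naive libraries at 1 TPM or more. The exposed values rest on few counts, 7 to 56 in null and 19 to 45 in wild type libraries, against 219 to 1199 in null naive and 71 to 422 in wild type naive libraries. On the log2 scale the exposure response was -3.49 (SE 0.50, adjusted p = 7e-06) in null and -2.69 (SE 0.51, adjusted p = 0.00023) in wild type mice, or 11.3-fold and 6.43-fold lower.

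Adrb1 (ENSMUSG00000035283.6, chr19:56710631-56721545, + strand), the beta-1 adrenergic receptor, was the member that edgeR called in none of the comparisons. It had 20.4, 17.0, 20.7, 16.7 and 16.9 TPM in null exposed libraries, against 23.3, 19.6, 23.6, 20.9 and 22.5 TPM in null naive libraries. Wild type mice gave 14.4, 13.4, 18.5, 19.4 and 22.2 TPM in exposed libraries, against 23.0, 22.0, 24.4 and 24.9 TPM in naive libraries. The ranges overlapped in both genotypes. The log2 fold change was 0.10 (SE 0.12, adjusted p = 0.55) in null and -0.06 (SE 0.13, adjusted p = 0.77) in wild type mice, with intervals of 1.96 SE either side of -0.14 to 0.34 and -0.31 to 0.19. On the log2(TPM + 1) scale it was -0.25 (limma adjusted p = 0.066) in null and -0.42 (adjusted p = 0.0049) in wild type mice, so its direction in null mice and its call in wild type mice depend on the scaling.

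Ptgir, the Gs-coupled receptor for prostacyclin, was the other abundant prostanoid receptor and rose with exposure. It had 74.9, 74.5, 41.1, 83.0 and 85.4 TPM in null exposed libraries, against 20.9, 36.0, 26.7, 20.0 and 21.0 TPM in null naive libraries. Among wild type libraries it had 45.3, 39.5, 48.5, 57.5 and 44.6 TPM in exposed libraries, against 11.1, 13.7, 9.12 and 7.81 TPM in naive libraries. The exposed and naive ranges did not overlap in either genotype. In edgeR the log2 fold change was 1.91 (SE 0.21, adjusted p = 4.2e-07) in null and 2.63 (SE 0.24, adjusted p = 4.6e-08) in wild type mice. Ptger3, Ptgdr2 and Tbxa2r were tested and not called in any comparison, with group means of at most 0.236 TPM. Another 8 receptors of these families (Adra1a, Adra1b, Adra1d, Adra2b, Adra2c, Adrb3, Ptgdr and Ptgfr) did not pass the low count filter, and Adra2c was at 0 in all 19 libraries.

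**Figure D3:**
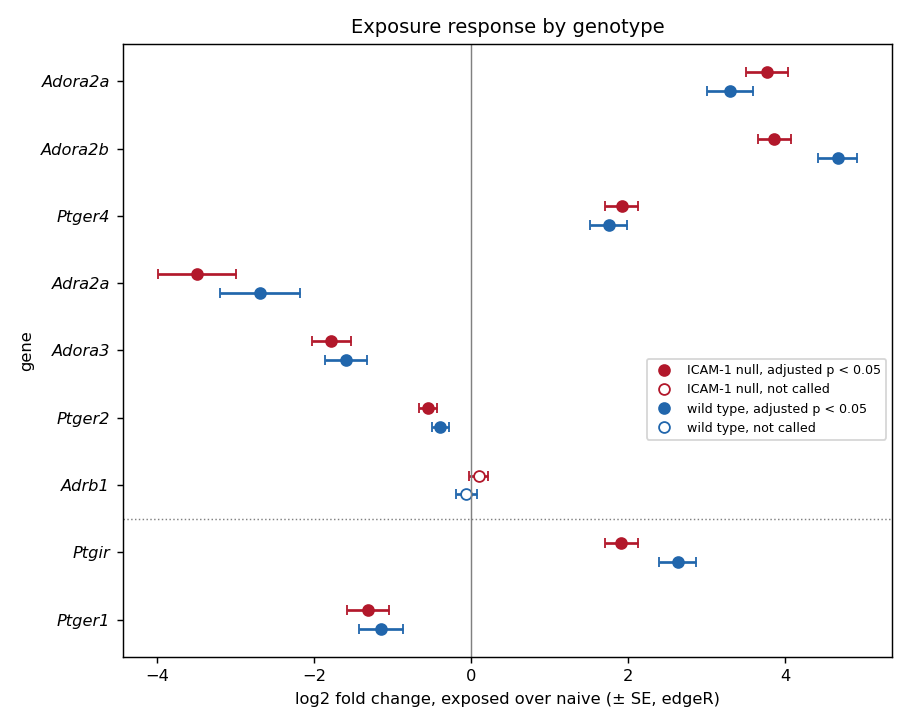
Log2 fold change of exposed over naive libraries (edgeR, whiskers 1 SE) for the 7 members above the dotted line and 2 related receptors below it, in ICAM-1 null (red, upper of each pair) and wild type mice (blue). Filled points have an adjusted p below 0.05; the 2 genotypes lie on the same side of 0 for every gene but Adrb1, whose points are both open.

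The order of the members by level changed with exposure. In null exposed libraries it was Adora2b, Ptger4, Adrb1, Ptger2, Adora2a, Adora3 and Adra2a, and in wild type exposed libraries Adora2b, Ptger4, Ptger2, Adrb1, Adora2a, Adora3 and Adra2a. Adrb1 and Ptger2 had overlapping ranges in both exposed groups, as did Ptger2 and Adora2a in the null exposed group. In null naive libraries the order was Ptger2, Adrb1, Ptger4, Adora3, Adora2b, Adra2a and Adora2a, with Ptger2 alone clear of its neighbour. In wild type naive libraries it was the same, with gaps between Ptger2 and Adrb1, between Ptger4 and Adora3 and between Adora3 and Adora2b. By mean TPM, Adora2b led in exposed cells and Ptger2 in naive cells of both genotypes.

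Between genotypes, Adora2b was higher in null than in wild type naive cells and was the only member called. In naive libraries 1 of 7 members was called higher and 0 lower, where 4.32% of all genes were called higher and 2.61% lower. Adora2b averaged 7.77 ± 2.39 TPM in null naive and 2.96 ± 0.728 TPM in wild type naive libraries (SD), and the lowest null library, at 4.93 TPM, was above the highest wild type library, at 3.66 TPM. The log2 fold change, null over wild type, was 1.42 (SE 0.23, adjusted p = 0.00036), or 2.67-fold. It was called in 30 of 31 alternative settings. The exception left out wild type naive libraries 1, 2 and 3, whose totals were low, and with library 4 alone in that group, taken to vary like the other groups, it was 1.13 (adjusted p = 0.22). Ptgir was also higher, with 24.9 ± 6.74 TPM in null naive and 10.4 ± 2.56 TPM in wild type naive libraries (log2 fold change 1.36, SE 0.22, adjusted p = 0.00052), and was called in all settings tried, at 1.16 to 1.71. Adora3 averaged 13.1 ± 2.41 TPM in null naive and 8.82 ± 2.24 TPM in wild type naive libraries and did not pass (0.66, SE 0.26, adjusted p = 0.17). Ptger4 (-0.44, SE 0.22, adjusted p = 0.31) and Adra2a (0.78, SE 0.48, adjusted p = 0.45) did not pass. Adora2a (-0.23), Adrb1 (-0.04) and Ptger2 (-0.01) had adjusted p of 0.79, 0.94 and 0.99. Neutrophil marker sums were also higher in null than in wild type naive libraries, at 170-185 against 67-94.1 TPM. The markers were not alike: Csf3r averaged 99.0 against 31.6 TPM, Ltf 9.63 against 10.5 TPM and Ly6g 0.24 against 0.271 TPM. Of 9 tested, 3 were called higher and 0 lower. Adora2b was still called with neutrophil and lymphocyte marker levels as covariates, each a mean log2 level and not that sum. The part of cell composition in its difference was not tested.

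In exposed libraries 0 of 7 members were called between null and wild type by edgeR, where 4.45% of all genes were called higher and 4.11% lower. Adora2b came closest, at 88.0 ± 15.3 TPM in null exposed and 59.4 ± 12 TPM in wild type exposed libraries, with overlapping ranges (log2 fold change 0.61, SE 0.19, edgeR adjusted p = 0.055). It was the only member with an unadjusted p below 0.05. It passed in 10 of 31 alternatives, among them DESeq2, which called 1 member (adjusted p = 0.012). Leaving out wild type naive library 1, null naive library 1, null naive library 5, wild type exposed library 4 or null exposed library 1 also brought it past the threshold, at 0.61, 0.61, 0.61, 0.70 and 0.69. Over all alternatives the adjusted p ran between 0.012 and 0.59. The 1.96 SE intervals of the other members were -1.02 to 0.98 for Adra2a, -0.13 to 0.35 for Adrb1, -0.20 to 0.70 for Adora2a, -0.04 to 0.98 for Adora3, -0.39 to 0.05 for Ptger2 and -0.66 to 0.12 for Ptger4. A null over wild type difference of a log2 unit lies outside those intervals for 5 of them, though barely for Adora3. The multiple 1.96 is that of a normal distribution and makes the intervals narrower than the test itself would, so they set no firm bound. Adra2a, with its few counts, has the widest. Outside the members, Ptgir was close to Adora2b, at 0.65 (edgeR unadjusted p = 0.005), and was not called.

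The response to exposure was compared between genotypes by the interaction term, null response minus wild type response. For 0 of 7 members was it called by edgeR or by DESeq2, where 0.166% of all genes were called higher and 0.137% lower. Among the members, Adora2b had the one unadjusted p below 0.05 (-0.81, SE 0.30, edgeR adjusted p = 0.33). Adra2a was at -0.81 (SE 0.69, edgeR adjusted p = 0.78) and Adora2a at 0.48 (SE 0.36, adjusted p = 0.74). Intervals of 1.96 SE ran between -0.20 and 0.50 for Adrb1, -0.92 and 0.54 for Adora3, -0.45 and 0.13 for Ptger2 and -0.42 and 0.76 for Ptger4. Ptgir, which is not a member, was at -0.72 (edgeR unadjusted p = 0.027) and was not called either. A p that misses the threshold does not show that the genotypes respond alike. The shares of Adora2b and Ptger4 in their families were also compared between genotypes, and neither passed; the closest was Adora2b in naive libraries, at 35.6% in null and 23.1% in wild type (exact permutation p = 0.063, adjusted p = 0.12).

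The genes that make and remove the ligands were examined next. Of 10 tested genes for the supply and removal of prostaglandin E2, 3 rose and 1 fell in null mice, and 3 rose and 0 fell in wild type mice, with list medians of -0.05 and 0.20 beside 0.02 over all genes in both. Over all genes 21.3% rose and 23.4% fell in null mice, and 20.1% did each in wild type mice. Ptgs2, the inducible cyclooxygenase, had 104, 98.2, 30.6, 54.7 and 58.0 TPM in null exposed libraries, against 0.442, 0.392, 0.392, 0.290 and 0.449 TPM in null naive libraries. In wild type mice it had 66.5, 47.4, 46.5, 49.9 and 50.7 TPM in exposed libraries, against 0.0433, 0.187, 0.347 and 0.350 TPM in naive libraries. It was above 30 TPM in every exposed library and below 0.5 TPM in every naive one. On the log2 scale the exposure response was 7.79 (SE 0.39, adjusted p = 5.2e-11) in null and 8.02 (SE 0.45, adjusted p = 3.9e-10) in wild type mice. Ptges, the synthase that acts after it, averaged 152 ± 38.5 TPM in null exposed and 10.7 ± 1.31 TPM in null naive libraries (4.33, SE 0.20, adjusted p = 2.2e-12), and 107 ± 26.1 TPM in wild type exposed and 8.72 ± 1.75 TPM in wild type naive libraries (4.09, SE 0.22, adjusted p = 2.6e-11). Ptges3, the cytosolic synthase, rose by less (0.54 in null and 0.68 in wild type mice). Abcc4, an exporter of prostaglandins and cyclic nucleotides, fell in null mice (-0.36, adjusted p = 0.021), and in naive libraries it was higher in null than in wild type mice (0.46, adjusted p = 0.031).

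Of 10 tested genes of adenosine supply and removal, 0 rose and 1 fell in null mice, and 1 rose and 0 fell in wild type mice, where 21.3% and 23.4% of all genes in null and 20.1% each way in wild type mice were called higher and lower. These were Enpp1, an ectonucleotidase (-0.28, SE 0.11, adjusted p = 0.039), and Adk, adenosine kinase (0.39, SE 0.15, adjusted p = 0.037). The direction of Adk depends on the scaling, since its mean was 16.0 ± 2.62 TPM in wild type exposed and 17.0 ± 4.30 TPM in wild type naive libraries. The genotypes differed in Nt5e, which encodes CD73, the enzyme that makes adenosine from AMP at the cell surface. Nt5e (chr9:88209250-88254145 on GRCm39) shares its chromosome with Icam1, which lies far from it at chr9:20927281-20940113. Nt5e had 1.22, 2.62, 0.565, 0.667 and 1.26 TPM in null exposed libraries, against 6.56, 8.22, 9.37, 8.79 and 8.95 TPM in wild type exposed libraries. It had 0.560, 1.27, 0.900, 1.63 and 1.87 TPM in null naive libraries, against 14.6, 11.1, 17.7 and 16.1 TPM in wild type naive libraries. No null library reached the lowest wild type library. The log2 fold change, null over wild type, was -2.69 (SE 0.34, adjusted p = 2.4e-05) in exposed and -3.50 (SE 0.36, adjusted p = 1.8e-06) in naive libraries. Pnp, purine nucleoside phosphorylase, was slightly higher in null mice, by 0.27 (SE 0.05, adjusted p = 0.0014) in exposed and 0.26 (SE 0.06, adjusted p = 0.0048) in naive libraries. Among genes of catecholamine removal, Maoa, a monoamine oxidase, was higher in null mice, by 0.60 in exposed (adjusted p = 0.034) and 0.74 in naive libraries (adjusted p = 0.015).

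**Figure D4:**
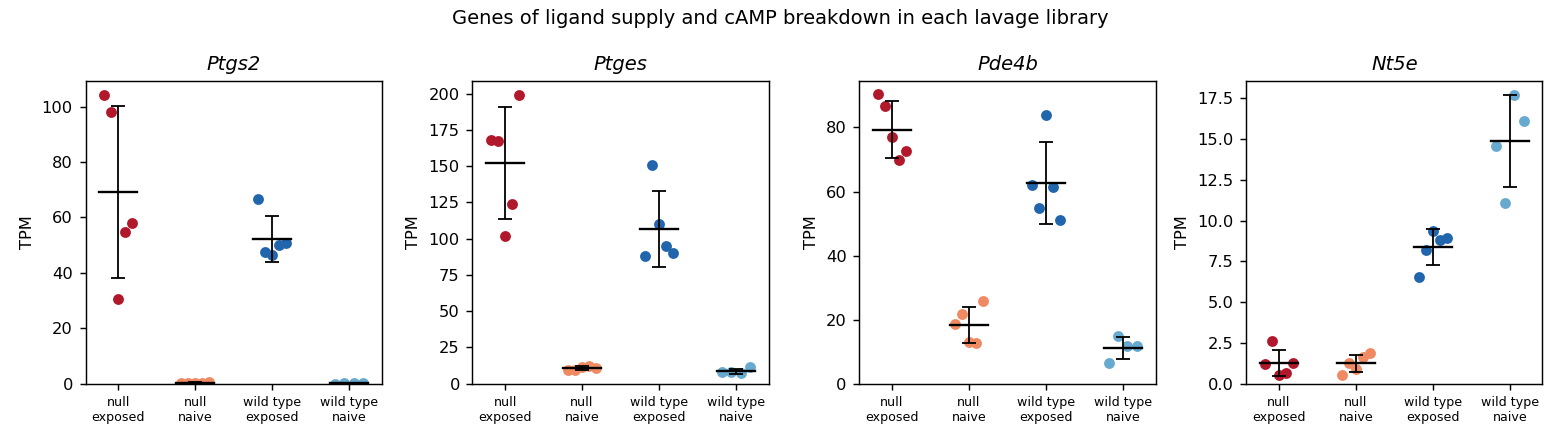
TPM of Ptgs2, Ptges, Pde4b and Nt5e in each lavage library by group (linear axes from 0); points are libraries, long bars means and whiskers 1 SD. Ptgs2, Ptges and Pde4b are higher in all exposed than in all naive libraries, and Nt5e is lower in all null than in all wild type libraries.

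Downstream of the receptors, 24 tested genes of G proteins, adenylyl cyclases and protein kinase A included 5 that rose and 5 that fell in null mice, and 7 that rose and 5 that fell in wild type mice (list medians -0.01 and 0.30). The counts in null mice are near the 21.3% and 23.4% of all genes called higher and lower, and those in wild type mice stand beside 20.1% each way. Crtc2, a coactivator of the cAMP-regulated factor CREB, rose by 1.49 (SE 0.09, adjusted p = 5.3e-12) in null and 1.20 (SE 0.10, adjusted p = 1e-09) in wild type mice. Gnai3, a Gi subunit, rose by 0.79 and 0.82 in null and wild type mice, and Atf1, a CREB family factor, by 0.33 and 0.56. In null mice the direction of Atf1 depends on the scaling, with 48.3 ± 2.73 TPM in exposed and 49.5 ± 5.56 TPM in naive libraries. Adcy7, an adenylyl cyclase, averaged 52.0 ± 4.90 TPM in null exposed and 99.8 ± 4.52 TPM in null naive libraries (-0.58, SE 0.07, adjusted p = 2.1e-07), and 72.3 ± 8.56 TPM in wild type exposed and 119 ± 9 TPM in wild type naive libraries (-0.34, SE 0.07, adjusted p = 0.00051). Adcy7 was also lower in null than in wild type exposed libraries (-0.43, adjusted p = 9.9e-05). Adcy4, another cyclase, was higher in null than in wild type mice, with 5.66 ± 1.3 TPM in null exposed and 1.55 ± 0.182 TPM in wild type exposed libraries (1.95, SE 0.20, adjusted p = 2.9e-07). In naive libraries it averaged 7.14 ± 0.746 TPM in null and 1.83 ± 0.734 TPM in wild type mice (2.11, SE 0.22, adjusted p = 3.4e-07).

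Among 21 phosphodiesterases and genes of receptor desensitisation, 6 rose and 6 fell in null mice, and 7 rose and 6 fell in wild type mice (list medians 0.05 and 0.15), beside 21.3% of all genes called higher and 23.4% lower in null and 20.1% each way in wild type mice. Pde4b, a phosphodiesterase that degrades cAMP, averaged 79.4 ± 8.86 TPM in null exposed and 18.4 ± 5.65 TPM in null naive libraries (2.52, SE 0.23, adjusted p = 8.4e-08). Wild type libraries averaged 62.7 ± 12.7 TPM in exposed and 11.2 ± 3.44 TPM in naive libraries (3.03, SE 0.26, adjusted p = 4.9e-08). Rgs1, a regulator that switches off Gi, rose by 3.33 (SE 0.30) in null and 4.16 (SE 0.34) in wild type mice, whereas Rgs2, a regulator that acts mainly on Gq, fell by 1.65 (SE 0.15) and 1.69 (SE 0.15). The receptor kinase gene Grk6 fell by 0.99 and 0.93 in null and wild type mice, and Grk5 rose by 0.45 and 0.63. Grk5 was lower in null than in wild type mice (-0.49 in exposed and -0.31 in naive libraries), and Grk3 was higher (0.61 in both).

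Of 15 tested genes known to respond to cAMP, 9 rose and 1 fell in null mice, and 9 rose and 0 fell in wild type mice, with list medians of 1.48 and 2.06 beside 0.02 over all genes. Over all genes 21.3% were called higher and 23.4% lower in null mice, and 20.1% each way in wild type mice. The list was chosen with earlier results of these data known, and many of its genes also answer to other signals that follow microbial stimuli. The part of cAMP in these changes was not tested. Nr4a1, a nuclear receptor, averaged 349 ± 33.1 TPM in null exposed and 23.5 ± 3.73 TPM in null naive libraries, and 359 ± 95.5 TPM in wild type exposed and 18.2 ± 4.06 TPM in wild type naive libraries. Its log2 fold change was 4.23 (SE 0.20) in null and 4.67 (SE 0.22) in wild type mice, that of Nr4a3, a related receptor, 5.40 and 6.32, and that of the AP-1 gene Fosb 3.38 and 3.32. Areg, the growth factor amphiregulin, averaged 38.5 ± 17.0 TPM in null exposed and 0.925 ± 0.351 TPM in null naive libraries (5.68, SE 0.34), and 111 ± 24.7 TPM in wild type exposed and 0.912 ± 0.440 TPM in wild type naive libraries (7.29, SE 0.40). In exposed libraries Areg was lower in null than in wild type mice (-1.49, SE 0.26, adjusted p = 0.0009), while the difference between the responses did not pass (-1.60, SE 0.49, adjusted p = 0.23). Thbs1, thrombospondin 1, was higher in null than in wild type naive libraries (1.05, SE 0.29, adjusted p = 0.024). Across the 6 lists of ligand and signalling genes, 0 genes were called for the interaction, beside 0.302% of all genes tested. At that share, lists of this size would hold hardly any call, so the 0 says little about these genes.

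The genes whose levels ran closest to each member over the 19 libraries were found by the root mean square difference in centred log2 CPM among 11981 candidates. For Adora2b, whose own SD over the libraries was 2.25, they were Gadd45a (0.39), a stress-induced gene, and the chemokines Ccl9 (0.42) and Ccl17 (0.46). Adora2a (SD 1.85) lay nearest Nfkb2 (0.36), an NF-kB subunit, Cflar (0.36), an inhibitor of caspase 8 activation, and Zc3h12a (0.39), an RNase that degrades inflammatory mRNAs. Ptger4 (SD 1.06) lay nearest the immediate-early gene Egr2 (0.24), the cytokine receptor Il20rb (0.30) and the activation marker Cd69 (0.31). Adora3 (SD 1.06) lay nearest Mfsd9 (0.34), Marveld2 (0.35) and Tex9 (0.35), and Adra2a (SD 1.78) nearest Zfp810 (0.68), G0s2 (0.70) and Dusp6 (0.73), a phosphatase that inactivates ERK. Ptger2 (SD 0.30) lay nearest Odr4 (0.12), Map3k1 (0.13) and Irf2 (0.14), and Adrb1 (SD 0.20) nearest Macrod1 (0.14), Slc35a2 (0.15) and Drg2 (0.15). The distance for Adrb1 was close to its own SD. These distances describe the same libraries, which all share the exposure contrast.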

How the data were processed

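RNA of lavage cells was measured in 19 libraries. Per the labels' protocols, poly(A) RNA was sequenced as read pairs, with a plan of 20 M reads for each library. STAR, StringTie version 2 and GRCm39 are named in the submitters' processing notes, while their options and the strand setting were not given in the sources used here. The deposited tables hold StringTie's estimated counts per gene, whole numbers not scaled for depth, and TPM computed by the authors. Totals of 32.8 to 80.3 M counts exceed the planned reads. A count may be less than a read, or libraries may be deeper than planned, which was not checked. If a count is less than a read, errors from counting alone would be too small.

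Genes were tested on the deposited estimated counts, which needed no rounding, with edgeR 4.0.16 in R 4.3.3 (TMM, filterByExpr at its minimum count, 10, and total, 15, robust quasi-likelihood F test, all 19 libraries in 1 model of 4 groups, Benjamini-Hochberg over 20501 genes, threshold 0.05). The tests were checked on simulated counts. Alternatives used DESeq2 1.42.0 and limma 3.58.1. Family shares were tested by exact permutation. Within each group, all libraries differed from one another. Some genes of these families and lists are not reported here.

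The members and gene lists were chosen with earlier results of these data known. Pathway genes were named by rule: from each list up to 4 with the smallest adjusted p for exposure and a mean of at least 1 TPM in some group, and up to 2 for genotype or the interaction. Promoters are RefSeq's on GRCm38.p6, which is not the build of the tables, so their coordinates are not those of the genes.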

Additional observations from a re-analysis of the deposited data

Results flagged for a closer look

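Among the receptors, 3 of 36 groups of 4 or 5 libraries held a library far from the others by Dixon's test, which chance gives in about 1 in 20 groups. Adra2a was highest in library 5 of the wild type exposed group, at 0.388 TPM, still below every naive library. Ptger2 was lowest in library 2 of the wild type naive group, at 28.0 TPM, and Ptgir was lowest in library 3 of the null exposed group, at 41.1 TPM.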

How the results depend on the processing

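Of 31 alternative settings, all kept the exposure calls of Adora2a, Adora2b, Adora3, Ptger4 and Adra2a in both genotypes, and none of the 30 that give an interaction called it for a member (a fit of only 2 groups gives none). Between null and wild type exposed libraries 1 member, Adora2b, passed under DESeq2, a minimum count of 50, counts divided by 4, a fit of only the 2 groups and the replicate block, and leaving out single libraries gave 0 to 1. In naive libraries a fit of only the 2 groups called 2 members, with Adora3 at 0.64 (adjusted p = 0.008), and 0 passed without wild type naive libraries 1, 2 and 3, where Adora2b was 1.13 (adjusted p = 0.22).

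Counts of genes called moved with several settings. With epithelial and red cell covariates it was 529 for null against wild type exposed (1755 as reported), 5662 for exposure in null (9175), 2349 for exposure in wild type (8245) and 31 for the interaction (62). With neutrophil and lymphocyte covariates it was 857 for null against wild type exposed, 853 for naive (1421), 5288 for exposure in null and 2907 in wild type. Without the 3 wild type naive libraries of low total it was 338 for naive, 4427 for exposure in wild type and 6 for the interaction. DESeq2 called 240 and limma on log2(TPM + 1) 114 for the interaction, and leaving out single libraries gave 31 to 79. The cause of these shifts was not tested. Calls that were higher made up 46.4% on log2(TPM + 1) against 62.4% by edgeR for null over wild type naive, and 69.3% against 54.8% for the interaction.

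Values that changed sign were not called as reported. Null over wild type exposed, Adra2a was 0.04 with counts divided by 4, 0.67 with epithelial and 0.48 with neutrophil covariates, against -0.02, and -0.35 to 0.38 with single libraries left out. Adrb1 was -0.01 with neutrophil covariates, and Adora2a was -0.01 to 0.37 without single libraries. Null over wild type naive, Ptger2 was 0.02 with no filter, 0 with the replicate block and -0.08 to 0.02 without single libraries, and Adora2a was -0.38 to 0.02. For exposure in null, Adrb1 was -0.25 and -0.26 on log2(TPM + 1) and log2(TPM + 0.1) and -0.07 with epithelial covariates; in wild type it was 0.23 with neutrophil covariates and -0.2 to 0.04 without single libraries. For the interaction, Adora3 was 0.16 with epithelial covariates and -0.36 to 0.04 without single libraries, and Ptger4 was 0 to 0.36.

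Replicate numbers recur across groups but did not pair libraries: over 27 same-numbered pairs the correlation of deviations ran between -0.08 and 0.07, and in 13 of 54 comparisons of a library with another group the best match had its own number. With the replicate block Adora2b was 0.58 (adjusted p = 0.028) for null over wild type exposed, and 1710 genes were called in that comparison.

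Low counts limit Adra2a in exposed libraries, and the single wild type naive group of 4, with 3 low totals, limits every comparison that uses it.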
